A study of Rattus norvegicus with 12 samples.

Results

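Nags and Cps1, the genes of the first reactions that bring ammonia into the urea cycle, were examined in kidneys of rat fetuses. They were 2 of the 14557 genes that the 12 arrays measured with a cluster of a single gene symbol. Both were chosen by their difference between the groups on these same arrays, so that difference is given below as a description, with no test. Each array held RNA of kidneys pooled from 6 fetuses at 19 days of gestation, not separated by sex, and 1 mother per array is the reading taken of the labels. The CPS group (chronic photoperiod shifting) comprised 6 pools from mothers whose light and dark phases were reversed again and again during gestation. The LD group comprised 6 pools from mothers under a constant cycle of 12 h light and 12 h dark. All mothers were kept in single cages and had been mated under that constant cycle, and 1 field of the labels gives the clock time of dissection as 20 h while another gives 8 h. A pool mixes every cell of the kidney with whatever tissue came along in the dissection, and neither sex nor litter position can be followed in it.

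The urea cycle turns ammonia into urea and runs as a whole in the periportal cells of the liver. N-acetylglutamate synthase (Nags) makes N-acetylglutamate, without which the next enzyme is inactive. Carbamoyl phosphate synthetase 1 (Cps1) then joins ammonia and bicarbonate to carbamoyl phosphate in the mitochondrial matrix. Both enzymes are most abundant in liver and are also made in small intestine, whereas the kidney is known for a later stretch of the same route, in which argininosuccinate synthase (Ass1) takes part in making arginine from citrulline. Albumin (Alb), the main plasma protein that hepatocytes secrete, is used here to follow liver RNA from pool to pool.

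The stretches around the start sites of Nags, Cps1 and Alb are shown because the relation of the first 2 genes to Alb is examined pool by pool. Each holds 250 bases before the start and 50 after it, from RefSeq on the build GRCr8, written 5′ to 3′ on the strand of the gene. Nags lies on the plus strand at chr10:87598266-87598565, Cps1 on the plus strand at chr9:76063613-76063912 and Alb on the minus strand at chr14:17906930-17907229. Capitals mark matches to 10 short motifs on either strand.
Nags: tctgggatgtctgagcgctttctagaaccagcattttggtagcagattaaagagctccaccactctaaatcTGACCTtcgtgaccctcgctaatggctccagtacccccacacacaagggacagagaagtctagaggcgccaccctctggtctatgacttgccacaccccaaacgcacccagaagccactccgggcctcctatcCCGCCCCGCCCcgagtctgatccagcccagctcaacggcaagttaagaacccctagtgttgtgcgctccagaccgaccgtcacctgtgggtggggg
Cps1: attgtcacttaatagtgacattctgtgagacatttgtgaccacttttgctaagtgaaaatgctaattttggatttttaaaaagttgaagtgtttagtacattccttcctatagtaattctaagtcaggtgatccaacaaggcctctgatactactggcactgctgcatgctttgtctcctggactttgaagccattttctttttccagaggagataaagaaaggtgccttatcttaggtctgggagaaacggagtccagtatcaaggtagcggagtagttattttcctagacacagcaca
Alb: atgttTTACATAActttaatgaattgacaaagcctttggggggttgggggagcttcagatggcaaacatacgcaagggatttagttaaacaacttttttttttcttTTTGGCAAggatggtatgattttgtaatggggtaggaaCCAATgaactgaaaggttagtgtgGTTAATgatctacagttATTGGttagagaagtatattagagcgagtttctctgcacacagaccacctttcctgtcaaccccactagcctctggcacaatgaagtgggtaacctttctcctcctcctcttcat
The Nags stretch had a G+C content of 58.0%, which 30.5% of the 33469 stretches of this length in the table exceeded. It held 2 GC boxes (GGGCGG, read on the opposite strand, with 1 base in common), a motif found in 33.1% of all stretches, the first of them at position -46 from the start. It also held 1 nuclear receptor half-site (AGGTCA, in 16.2%) at position -179. The Cps1 stretch was poorer in G+C, at 39.3%, which 89.4% of all stretches exceeded, and held none of the 10 motifs. The Alb stretch, with 40.7% G+C, held 2 CCAAT boxes (CCAAT, in 37.5%), 1 HNF1 half-site (GTTAAT, in 7.45%), 1 C/EBP motif (in 10.6%) and 1 D-box of the circadian clock (in 2.24%). The E-box of the clock (CACGTG, in 6.42%), the glucocorticoid receptor half-site (TGTTCT, in 20.7%), the CRE (in 1.83%) and the TATA box (TATAAA, in 14.2%) matched nowhere in the 3 stretches. A match describes letters and shows no binding, and a motif outside these 300 bases was not searched.

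The arrays are whole-transcript Affymetrix arrays, and their values are log2 after Robust Multiarray Average (RMA), so that a difference of 1 is a doubling. Array medians ran from 3.31 to 3.50 across the 12 pools, arrays correlated at 0.978 to 0.987 with each other, and precision is limited by their number. Probes differ in brightness, so the levels of single genes are not compared with each other, and the gauge of dim values and the level cut-offs used below are rough. Detection calls are not analysed here, so 1244 genes of olfactory and vomeronasal receptors served as a gauge of dim values. Their median level was 1.72 and their 95th percentile 2.66. A gene was called where limma gave an unadjusted two-sided p under 0.05, the threshold of the study. Over all 36685 clusters limma called 872 higher and 1074 lower in CPS (1151 and 672 once each array was centred on its median), and after Benjamini-Hochberg adjustment 0 remained by limma and 0 by the unpaired one-way test, which called 2020 before adjustment. In bulk RNA, fewer cells of a type and less RNA per cell cannot be told apart.

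Nags was higher in every CPS pool than in any LD pool. The 6 CPS pools gave 4.70, 4.55, 4.58, 4.48, 4.44 and 4.62, against 4.39, 4.02, 4.11, 4.27, 4.24 and 4.23 in the 6 LD pools, in the order of their replicate numbers. The groups did not overlap, and the narrowest gap, of 0.05, lay between CPS replicate 5 and LD replicate 1. Nags averaged 4.56 ± 0.09 in CPS and 4.21 ± 0.13 in LD (SD, n = 6 each). The difference, CPS minus LD, was 0.35 on the log2 scale with a standard error of 0.08, which is 1.28-fold. Pools of a group lay close together, with a pooled SD of 0.11 beside a median of 0.18 over all named genes. A lack of overlap with CPS higher was found for 24 named genes, 0.165% of those measured, and 237 named genes had a larger log2 difference than Nags. Since Nags was picked for this contrast, its place among those genes is no evidence about it.

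Cps1 was higher in CPS by a larger amount but with groups that overlapped. Its 6 CPS pools gave 5.49, 5.16, 4.06, 4.55, 4.22 and 3.58, against 2.78, 3.75, 3.67, 3.61, 3.47 and 4.60 in the 6 LD pools. CPS replicates 1 and 2 stood above every LD pool, LD replicates 1 and 5 stood below every CPS pool, and LD replicate 6 stood above 4 of the 6 CPS pools. Set pool against pool, CPS was above LD in 29 of 36 pairs. Cps1 averaged 4.51 ± 0.71 in CPS and 3.65 ± 0.58 in LD (SD, n = 6 each), a difference of 0.86 with a standard error of 0.34, or 1.82-fold. In all, 11 named genes had a larger log2 difference, while the pooled SD of Cps1 was 0.65, more than 5 times that of Nags. The 12 pools of both genes lay above the 95th percentile of the receptor genes, but the lowest, Cps1 in LD replicate 1, did so by little, at 2.78. At the threshold of the study limma called 2.94% of all named genes higher and 1.78% lower in CPS.

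**Figure D1:**
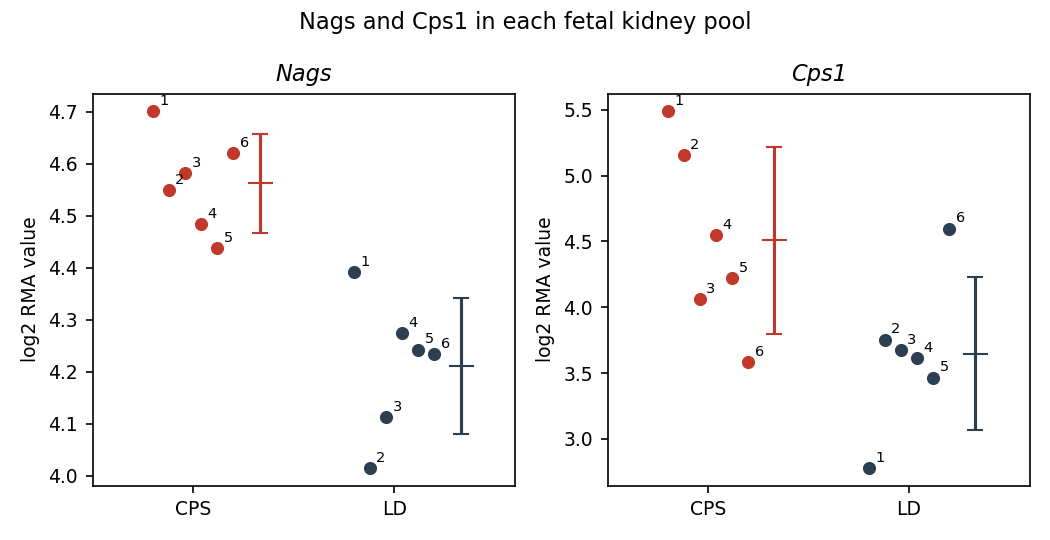
Log2 RMA value of Nags (left) and Cps1 (right) in each fetal kidney pool, CPS in red and LD in dark blue, with the replicate number beside each point and the mean ± SD (n = 6) as a bar. Nags separates the groups with a gap of 0.05, whereas for Cps1 LD replicate 6 lies at 4.60 among the CPS pools.

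Alb itself varied over a wide range within each group. It was 10.38, 11.59, 9.56, 10.60, 9.04 and 8.79 in CPS replicates 1 to 6, against 8.88, 7.87, 8.42, 9.99, 7.64 and 10.89 in LD replicates 1 to 6. The pools of highest Alb, CPS replicate 2 and LD replicate 6, were the second highest and the highest of their groups for Cps1. Alb averaged 9.99 ± 1.06 in CPS and 8.95 ± 1.27 in LD (SD, n = 6 each), and the difference of 1.05 had an exact two-sided permutation p of 0.152. The differences were 0.77 for Afp, the fetal counterpart of albumin, 0.86 for transferrin (Tf), 0.91 for the fibrinogen chain Fgg and 0.76 for transthyretin (Ttr), none of them called. All 18 measured liver markers had a positive difference, with a median of 0.67 against 0.01 over all named genes, but limma called only haptoglobin (Hp, 0.64, exact permutation p = 0.0216). The mean over the 18 markers ranged in CPS from 4.51 to 6.57 and in LD from 4.12 to 6.08, and none of them was at or below the 95th percentile of the receptor genes. Liver markers thus lay higher in CPS on average, as Cps1 and Nags did.

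Whether each gene followed Alb was asked after the mean of each group had been removed, so that the difference by which the genes were chosen did not enter. Cps1 stood higher where Alb stood higher, with r = 0.66 (permutation p = 0.0265) and Spearman's rho = 0.56 (permutation p = 0.0656) over 12 pools, and its log2 value changed by 0.37 per unit of Alb. Adjusted over the 14 correlations of 7 genes, these were 0.186 and 0.228, so neither passed the correction. Within CPS r was 0.80 (exact permutation p = 0.0625, n = 6) and rho 0.77 (exact permutation p = 0.103). Within LD r was 0.54 (exact permutation p = 0.286, n = 6) and rho 0.31 (exact permutation p = 0.564), and the 5 LD pools other than replicate 6 lay between 2.78 and 3.75 with no rise toward higher Alb. Without the 2 pools farthest from the median of Alb, CPS replicate 2 and LD replicate 5, r was 0.62 (permutation p = 0.0702). Leaving out CPS replicate 2, CPS replicate 6 or LD replicate 6 gave p of 0.0556, 0.0715 and 0.135 by permutation, so the unadjusted call rests on each of these pools. LD replicate 1 lay off the relation, with the lowest Cps1 of all pools at an Alb of 8.88 that exceeded 3 other LD pools, and so did CPS replicate 1, with the highest Cps1 at an Alb of 10.38 that 2 other CPS pools exceeded.

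For Nags no relation with Alb was detectable in 12 pools. Its r was 0.26 (permutation p = 0.459) and its rho 0.20 (permutation p = 0.578), or 0.714 and 0.809 after adjustment. Within CPS r was 0.05 (exact permutation p = 0.918, n = 6), and within LD it was 0.38 (exact permutation p = 0.464, n = 6). Without the same 2 pools r was 0.40 (permutation p = 0.325), and with 1 pool left out it lay between 0.09 without LD replicate 2 and 0.35 without CPS replicate 6. Without CPS replicate 5 it was 0.17, and after median centring 0.40, with permutation p of 0.0996 or more in all 20 alternatives. Across the 14556 other named genes, 386 had a higher r with Alb than Cps1, or 2.65%, and 3927 had a higher r than Nags, or 27.0%. The other 17 liver markers had r between 0.46 and 0.99 with Alb, and 16 of them were above Cps1. Whether the 2 correlations differ from each other was not tested.

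**Figure D2:**
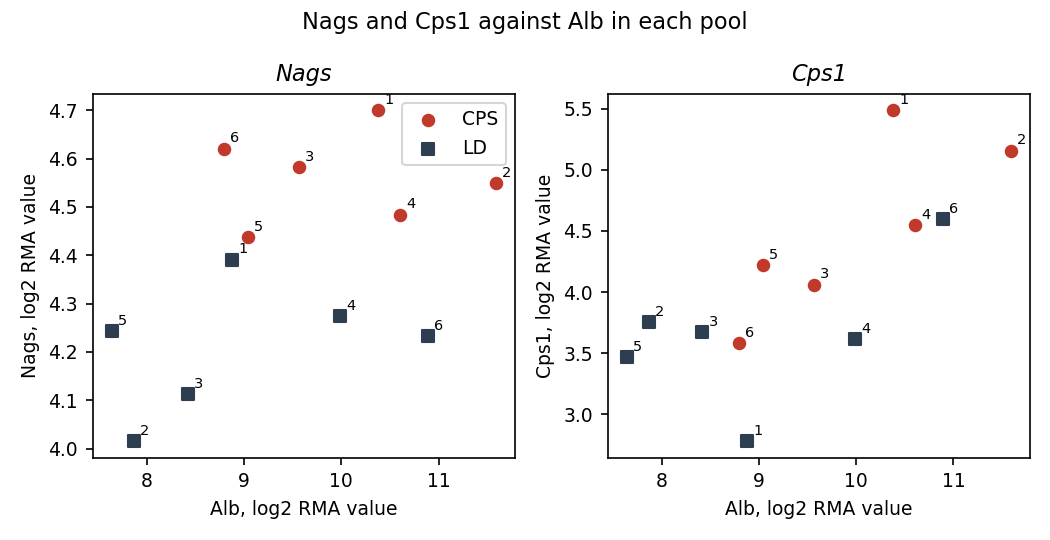
Log2 RMA value of Nags (left) and Cps1 (right) against that of Alb in the same pool, CPS as red circles and LD as dark blue squares, numbered by replicate. Cps1 lies higher at higher Alb among the CPS pools (r = 0.80). Among the LD pools replicate 6 stands out at 4.60 while the rest show no rise. The CPS pools of Nags all lie above the LD pools, which follows from its lack of overlap and says nothing about Alb.

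**Figure D3:**
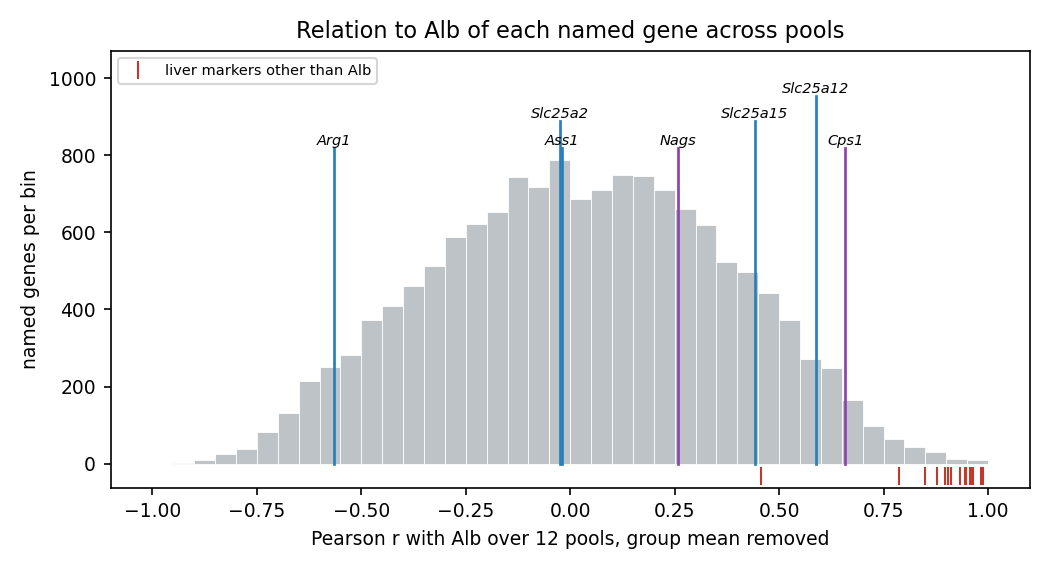
Distribution over the named genes of Pearson's r with Alb across 12 pools after removal of the group mean, with lines at 7 urea cycle and carrier genes and red ticks at the 17 liver markers other than Alb. Cps1 lies at 0.66 in the right flank, Nags at 0.26 nearer the centre, and Arg1 at -0.57 in the left flank.

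No relation between Nags and Cps1 was detectable across the pools. Their deviations from the group means had r = -0.09 (permutation p = 0.774) and rho = -0.19 (permutation p = 0.562) over 12 pools, with r = 0.29 within CPS and -0.44 within LD. CPS replicate 1 held the highest value of both, but CPS replicate 6 held the second highest Nags and the lowest Cps1 of its group. In LD, replicate 1 held the highest Nags and the lowest Cps1.

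The difference was also fitted with Alb as a covariate, as a description. Such a fit shifts each difference by the gene's slope on Alb within groups and the gap in Alb between groups. It therefore restates the correlations above and adds no separate evidence. Whether the 2 genes changed to different degrees was not tested. With Alb as a covariate the difference of Nags was 0.32 (standard error 0.09), 92.4% of the value without it, and that of Cps1 was 0.48 (standard error 0.30), 55.5% of the value without it. With the mean of the 18 liver markers as the covariate the differences were 0.33 (standard error 0.09) for Nags and 0.48 (standard error 0.27) for Cps1. Leaving out the pool of highest Alb in each group gave 0.36 for Nags and 0.92 for Cps1. Pools of like Alb were also set side by side, a step chosen with the values already known. Of the 6 pairs of a CPS pool and an LD pool whose Alb lay within 0.5 of each other, Nags was higher in CPS in 6, by 0.05 to 0.51, and Cps1 in 4, with differences between -0.09 and 1.88. For Nags that count was fixed in advance, since its groups did not overlap and any choice of pairs would have given it. The 6 pairs share pools with each other and were not tested.

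Markers of other tissues were set beside the 2 genes. For comparison, the mean of the 18 liver markers had r = 0.72 with Cps1 and 0.23 with Nags across pools, after removal of the group mean. For the small intestine, the other main site of both enzymes, the mean of 10 markers was 3.41 ± 0.21 in CPS and 3.36 ± 0.07 in LD (SD, n = 6 each). Its r across pools after removal of the group mean was 0.65 with Cps1 and 0.38 with Nags. Of those markers 5 lay at or below the 95th percentile of the receptor genes, among them Fabp2, the fatty acid carrier of enterocytes, with 2.49 in CPS and 2.23 in LD, and lactase (Lct), with 2.20 in CPS and 2.11 in LD. Of the 10 markers 7 had a positive difference, while the intestinal transcription factor Cdx2 had 3.39 in CPS and 3.57 in LD and the mucosal peptide Tff3 had 5.18 in CPS and 5.27 in LD, and limma and the one-way test called 0. The mean of the skeletal muscle markers ranged from 3.53 to 7.04 in CPS and from 3.35 to 4.77 in LD. It had r = 0.56 with Nags and 0.13 with Cps1. It was highest in CPS replicate 1, the pool that was also highest for Nags and Cps1. All 9 muscle markers had a positive difference, with a median of 0.98 against 0.67 for the liver markers, and limma called 1 higher and 0 lower. Without CPS replicate 1 the difference was 0.32 for Nags and 0.67 for Cps1. The adrenal medulla list had the highest r of the 9 marker lists with Nags, 0.70, although 3 of its 5 genes lay at or below the 95th percentile of the receptor genes. Its r with Cps1 was 0.14. Of 9 adrenal cortex genes limma called 5 higher and 0 lower in CPS, beside 2.94% and 1.78% of all named genes, and the one-way test called 3. Of these 9, 2 lay at or below the 95th percentile of the receptor genes. The mean of the 9 had r = 0.23 with Nags and -0.14 with Cps1. Red cell markers, positive in 8 of 8 with a median difference of 0.36 and none called, had r = 0.51 with Cps1 and 0.38 with Nags. Pancreas markers, of which 5 of 9 lay at or below that percentile, had 0.44 with Cps1 and 0.38 with Nags, and proximal tubule markers had the opposite sign, -0.47 with Cps1 and -0.40 with Nags. CPS replicate 1 was the highest pool not for skeletal muscle alone but also for the small intestine, adrenal medulla and pancreas lists. All 12 measured genes of nephron and kidney identity were above the dim range, with a mean of 7.39 ± 0.18 in CPS and 7.27 ± 0.13 in LD (SD, n = 6 each). What part any of these tissues had in the levels of Nags and Cps1 was not tested.

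The measured steps after Cps1 were not called between the groups. Ass1, which joins citrulline and aspartate, ranged in CPS from 7.77 to 8.30 with a median of 8.03, and in LD from 7.51 to 8.13 with a median of 7.86. Its groups overlapped, and the difference of 0.19 (standard error 0.14) was not called (exact two-sided permutation p = 0.223). Arginase 1 (Arg1), which releases urea from arginine, averaged 4.85 ± 0.23 in CPS and 4.75 ± 0.30 in LD (SD, n = 6 each), a difference of 0.10 (standard error 0.15, exact permutation p = 0.506). With 1 pool left out, the difference lay between 0.12 and 0.24 for Ass1 and between 0.04 and 0.18 for Arg1, which with Alb as a covariate had 0.24, and none of these was called. For Arg1 the correlation with Alb was negative, with r = -0.57 (permutation p = 0.0821) and rho = -0.54 (permutation p = 0.0979), or 0.228 for either after adjustment, and with r = -0.78 (permutation p = 0.0263) without the 2 farthest pools. Ass1 had r = -0.02 (permutation p = 0.956) and rho = 0.13 (permutation p = 0.710). The other members of the cycle are not analysed here.

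The mitochondrial carriers of the cycle were not called either. The ornithine carriers Slc25a15 and Slc25a2 had differences of 0.07 (exact permutation p = 0.305) and -0.04 (exact permutation p = 0.641), and the aspartate and glutamate carrier Slc25a12 had 0.04 (exact permutation p = 0.641). With 1 pool left out Slc25a15 lay between 0.04 and 0.11, and with Alb as a covariate it had 0.03. The sign for Slc25a2 turned without LD replicate 4, and that for Slc25a12 turned without CPS replicate 2 and with either covariate. Slc25a12, which muscle and brain use more than liver, had r = 0.59 (permutation p = 0.0418) and rho = 0.69 (permutation p = 0.0133) with Alb, or 0.195 and 0.186 after adjustment. For Slc25a15 r was 0.44 (permutation p = 0.160).

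**Figure D4:**
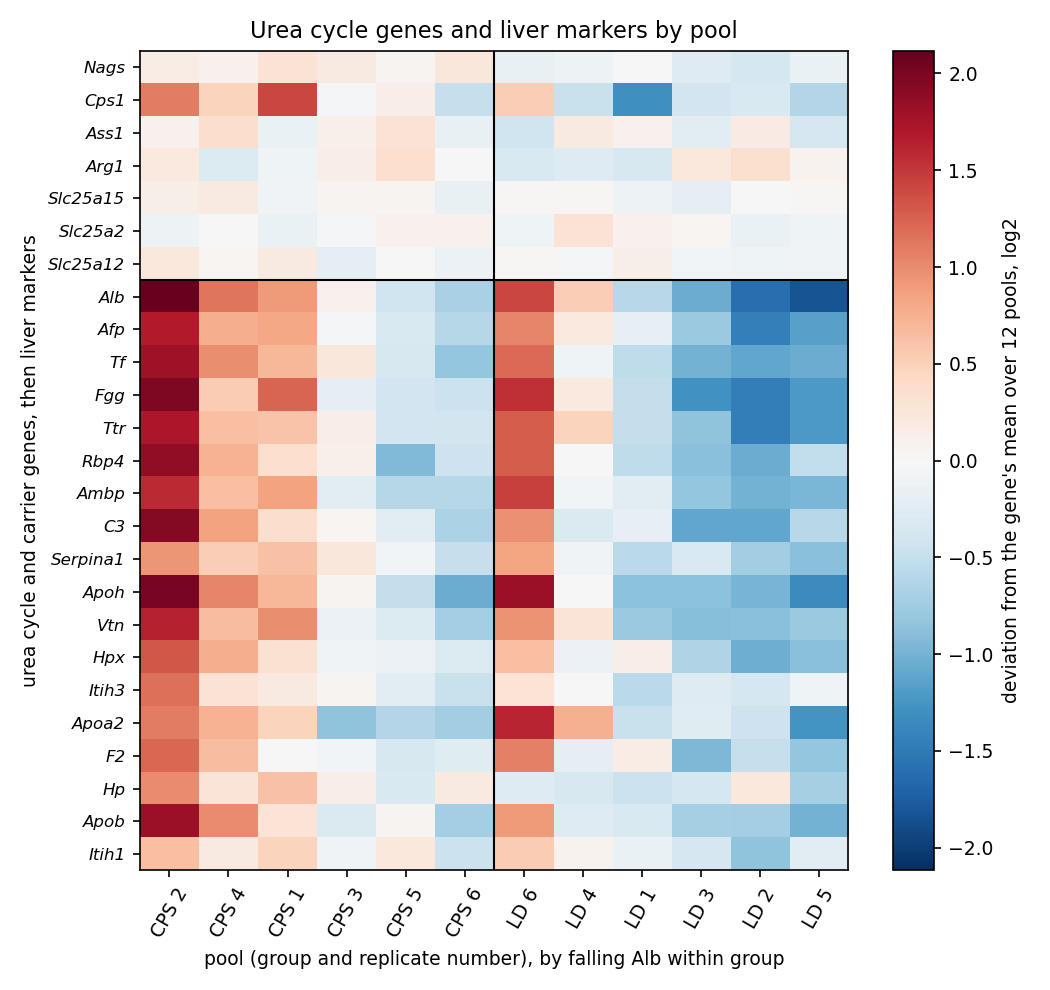
Deviation of each gene from its mean over 12 pools (log2, blue below and red above), CPS pools left and LD pools right of the line, by falling Alb within each group, with urea cycle and carrier genes above the line and 18 liver markers under it. The row of Cps1 is red with most of the liver block in CPS 1, CPS 2, CPS 4 and LD 6. It is reddest in CPS 1 (1.41), where Alb is at 0.91, and bluest in LD 1 (-1.30), where Alb is at -0.59. In LD 4 it is blue (-0.47) where Alb is red (0.52). The difference between the groups is left in these deviations. The row of Nags is near white to pale red in CPS (0.05 to 0.31) and near white to pale blue in LD (0.004 to -0.37).

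Around these enzymes, 52 of 67 listed genes that supply, use or transport their substrates and products were measured, besides Nags and Cps1. Limma called 1 of them higher, 0 lower and 51 neither, beside 2.94% and 1.78% over all named genes, and the median difference was 0.04. The unpaired one-way test also called 1. The gene that both called was Rhbg, an ammonia transporter of the basolateral membrane of the collecting duct. It ranged in CPS from 5.39 to 6.02 with a median of 5.81, and in LD from 4.97 to 5.75 with a median of 5.39. The groups overlapped, and the difference was 0.39 (standard error 0.15, exact permutation p = 0.0390). The call was lost without CPS replicate 4, CPS replicate 5, LD replicate 2 or LD replicate 5, with differences of 0.35, 0.34, 0.34 and 0.31, and with Alb (0.35), the liver marker mean (0.38) or the replicate block (0.39) in the fit. In all 7 the limma p lay between 0.0505 and 0.068, so the call was lost narrowly with a difference of like size.

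Of the 17 genes of ammonia, glutamate and bicarbonate supply, Rhbg aside, limma gave its lowest p to the glutamine carrier Slc38a3, with a difference of 0.30 (exact permutation p = 0.0563). Alanine aminotransferase (Gpt) had -0.27, the mitochondrial deacetylase Sirt3 had 0.19 and the mitochondrial aspartate aminotransferase Got2 had 0.13. The amino acid carrier subunit Slc3a2, named after its values were seen, had 0.08 (exact permutation p = 0.0455). Limma called none of these 5. Of 20 genes that use arginine and ornithine 0 were called by limma and 0 by the one-way test. The arginine carriers Slc7a1 and Slc7a2 had differences of 0.31 and 0.17, agmatinase (Agmat) had 0.24 and spermidine synthase (Srm) had -0.11. The same tests called 0 of the 3 measured aquaporins that pass urea or glycerol, with 0.27 for Aqp3, 0.11 for Aqp7 and 0.22 for Aqp9.

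Cad, which makes carbamoyl phosphate in the cytosol for pyrimidines, is the counterpart of Cps1 outside mitochondria. Its difference was -0.07 (exact permutation p = 0.284), opposite in sign to that of Cps1. Its partners Dhodh and Umps, the later enzymes of pyrimidine synthesis, had -0.19 and -0.08, and the uridine kinase Uck2 had 0.06. Of these 7 genes limma and the one-way test called 0.

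**Figure D5:**
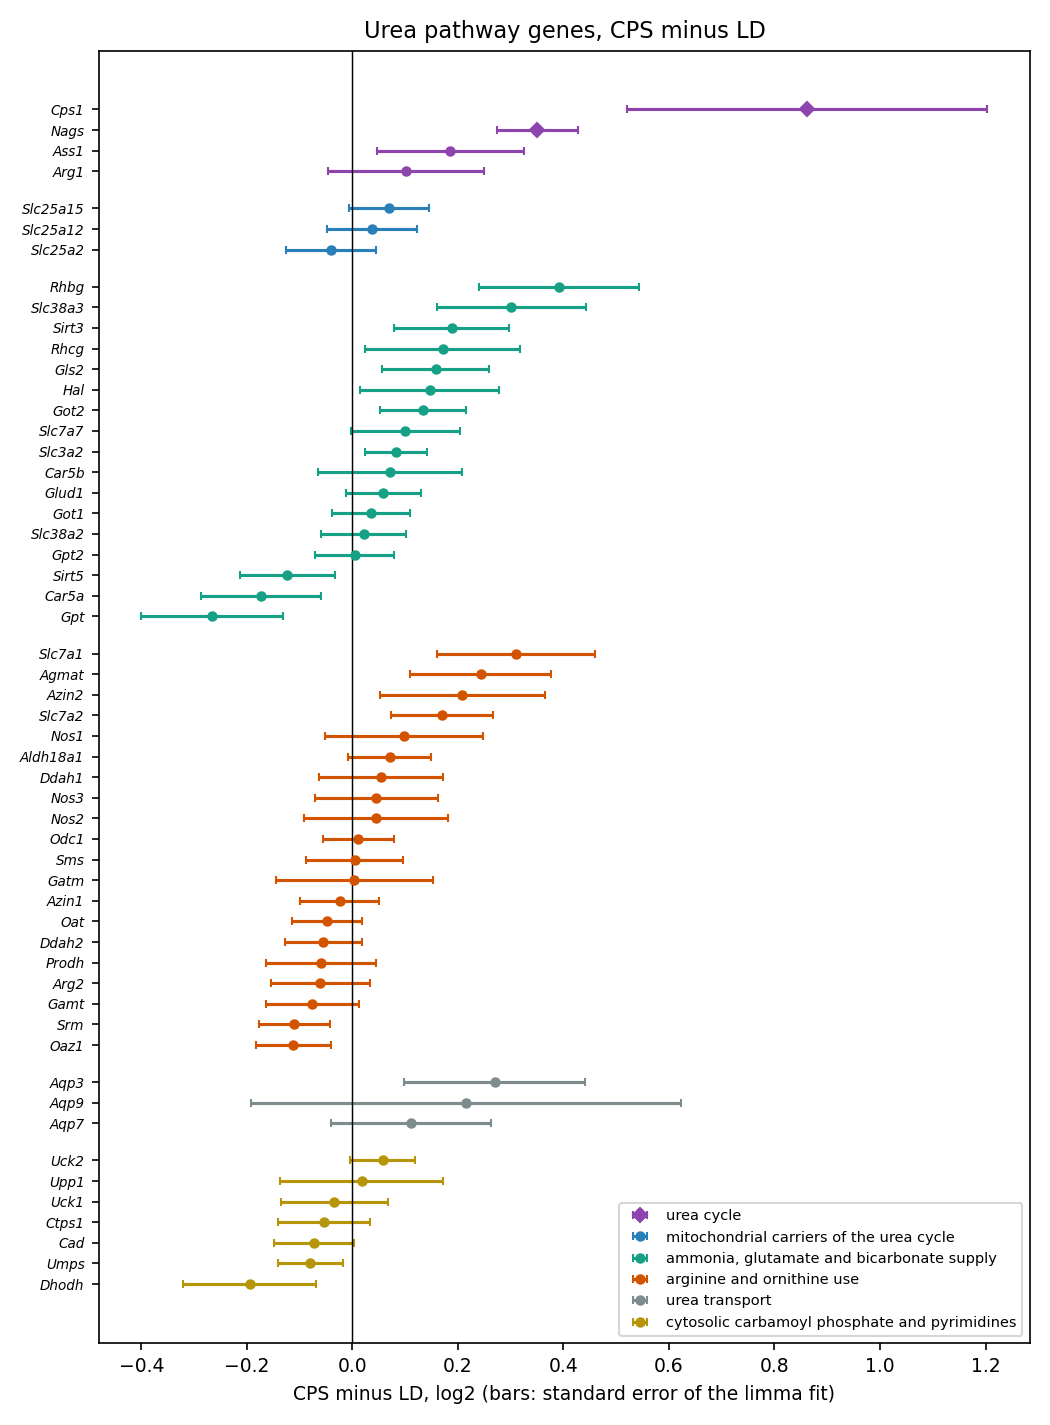
CPS minus LD on the log2 scale for each measured gene of 6 urea pathway lists, with the standard error of the limma fit as a bar and colours for the lists. Nags and Cps1 are the diamonds at 0.35 and 0.86, and among the 52 other genes the range is from -0.27 (Gpt) to 0.39 (Rhbg).

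Known regulators of the liver genes of the cycle were not called. Of 15 measured, limma and the one-way test called 0, where limma called 2.94% of all named genes higher and 1.78% lower. The lowest limma p belonged to the coactivator Ppargc1a, with 0.28 (exact permutation p = 0.0563). The pioneer factor Foxa1 had 0.26 and Nfyb, a subunit of the CCAAT-binding factor, -0.13. The glucagon receptor (Gcgr), with 2.03 in CPS and 2.23 in LD, was 1 of 4 regulators that lay within the dim range, where a missing call says nothing. A list of 8 further genes, mostly liver enzymes, that glucocorticoids or other hormones induce in liver held 1 call. It was lower, and stands beside the same shares over all named genes. Tryptophan dioxygenase (Tdo2) averaged 1.93 ± 0.08 in CPS and 2.27 ± 0.15 in LD (SD, n = 6 each), with a difference of -0.34 (standard error 0.08, exact permutation p = 0.00433), but both groups lay within the dim range. Tyrosine aminotransferase (Tat) had -0.15, Hpd of tyrosine breakdown 0.12 and the clock gene Per1 0.05, while Cyp7a1 of bile acid synthesis lay within the dim range too, with 2.05 in CPS and 1.97 in LD.

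The genes next to Nags and Cps1 on their chromosomes were set beside them. Limma called 0 of the 3 nearest measured genes on each side of either, and the one-way test called 1 of 6 beside each, Ppy and Bard1. Over all 36685 clusters the one-way test called 2020. Beside Nags, the gut hormones Pyy and Ppy had 0.43 (exact permutation p = 0.121) and 0.17 (exact permutation p = 0.0346), while Mpp2, Tmem101, Lsm12 and G6pc3 lay between -0.07 and 0.07. Ppy, with a mean of 2.63 in CPS and 2.46 in LD, lay within the dim range in both groups on average. Beside Cps1, Lancl1, Acadl, Kansl1l, Pced1bl1, Vwc2l and Bard1 lay between -0.13 and 0.18, and Bard1, a partner of the BRCA1 repair protein, had 0.11 (exact permutation p = 0.0152). RefSeq also annotates a long noncoding RNA that overlaps Nags, and whether the probes of the Nags cluster lie in the shared stretch was not tested.

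Genes whose deviations from the group means were most like those of Nags or Cps1 were sought among the 7279 named genes at or above the median level. For Nags they were the ubiquitin-like protein Nedd8 (r = 0.88), the cytokinesis factor Racgap1 (0.87), the mitochondrial outer membrane protein Samm50 (0.84), the transcription factor Mycn (0.84) and the RNA-binding protein Pcbp4 (0.81). For Cps1 they were the autophagy enzyme Atg7 (0.90), the mannose 6-phosphate receptor M6pr (0.89), the NF-kappa B subunit Rela (0.89), the sterol isomerase Ebp (0.88) and the chaperone partner Bag3 (0.87). The 5 genes most like Cps1 had r between 0.49 and 0.69 with Alb, and the 5 most like Nags between 0.00 and 0.32. These are the highest of many correlations over 12 pools and are a description.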

How the data were processed

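RNA of 12 fetal kidney pools was measured on Affymetrix Rat Gene 2.1 ST arrays. The authors made log2 values by RMA (background correction, quantile normalization across arrays, probe summary), and the deposited table of these values was used as it stands. Per the submitters' processing notes the software was the Affymetrix Expression Console (version not given in the sources used here). RMA draws low values together, so that differences of dim genes can come out too small. Of 36685 clusters 14824 carried 1 symbol in the platform annotation, 829 several and 21032 are unnamed here. Nags and Cps1 had 1 cluster each. 1 symbol was updated by hand. No column was left unmapped. Groups came from the sample titles, and p-values measure the spread between pools.

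CPS and LD were compared in R 4.3.3 with limma 3.58.1 (lmFit, eBayes, two-sided). Single genes were also tested by exact permutation over 924 relabelings (smallest p 0.00216). Correlations with Alb used 100000 permutations within groups (smallest p 1e-05), or all 720 orders within a group (smallest p 0.00139). Fits and correlations were tested on simulated data. The members and lists were chosen with earlier results of these data known. Besides the members, named genes are the other urea cycle and carrier genes, per list every called gene and at most 4 more by p, the top liver markers, the 5 most similar genes and the 3 nearest genes on each side. Alternatives were the one-way test, replicate block, trend with robust spread, array weights, median centring, renewed quantile normalization, a level filter, covariates and each pool left out. RT-qPCR and adult animals are not analysed here.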

Additional observations from a re-analysis of the deposited data

Results flagged for a closer look

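Single pools stood far from the rest of their group in 5 of 114 groups, from 57 named genes, which is about the 1 in 20 that chance gives. None of them was a value of Nags or Cps1. Samm50, among the genes most like Nags, was 9.117 in CPS replicate 1, against at most 8.962 in the other CPS pools, and that pool was also the highest for Nags. Among the chromosomal neighbours, Pced1bl1 was 3.939 in CPS replicate 2, with the next at 3.233, Tmem101 was 6.271 in LD replicate 3, with the next at 6.522, and Vwc2l was 4.198 in LD replicate 6, with the next at 4.744. Tdo2 was 1.974 in LD replicate 6, with the next LD pool at 2.304.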

How the results depend on the processing

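The difference of Nags lay between 0.31 and 0.39 over 19 alternatives and that of Cps1 between 0.48 and 1.05, the lowest with the liver marker mean as a covariate, and both stayed positive in all. Clusters lower in CPS numbered 672 after median centring, against 1074, both over all 36685 clusters. They numbered 618 when only clusters at or above the median level were fitted. That is a smaller set, so 618 cannot be read as a drop from 1074. Other urea pathway genes called were 2 after median centring, with trend and robust spread, and at or above the median level, 3 with array weights, and 0 to 4 with a pool left out (0 without CPS replicate 4 or LD replicate 5, 4 without LD replicate 6). The correlation of Cps1 with Alb was 0.56 by Spearman, 0.62 without the 2 farthest pools, 0.70 with the replicate block (exact permutation p = 0.0792) and 0.52 to 0.73 with a pool left out. It was 0.67 after median centring, 0.68 after renewed quantile normalization and 0.72 with the liver marker mean in place of Alb. Its unadjusted permutation p was under 0.05 in 14 of 20 alternatives, among them a version with the group difference left in. In the other 6 it was not. Slc25a2 turned to 0.015 without LD replicate 4 (-0.073 to 0.015 with a pool left out), and Slc25a12 to -0.034 with Alb, to -0.0344 with the liver marker mean as covariate and to -0.0044 without CPS replicate 2 (-0.0044 to 0.083 with a pool left out), all uncalled. Apart from the smaller set of clusters, the cause of these changes was not tested. The replicate numbers pair nothing in the data (same-numbered pools correlated at -0.08 to 0.10, and 1 of 6 best with its own number), and with the block Rhbg kept its difference of 0.39 at a limma p of 0.0616, so that the call was lost. The alternative of another cluster for the same symbol was not run, since each member has 1. With 12 pools, 1 array each, values near the dim range, such as the lowest Cps1 pool and Tdo2, are the least certain.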
